A study of Mus musculus with 4 samples.

Results

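The BCL2 family of apoptosis regulators was followed in mouse embryonic stem cells (ESCs) with a haploid or a diploid genome. The 10 genes were taken by symbol: the pro-survival genes Bcl2, Bcl2l1 and Mcl1, and the pro-death genes Bax, Bak1, Bcl2l11, Bid, Bad, Bik and Bbc3. All 10 were found among 19748 named genes on the array, through 13 probes whose accession mapped to these symbols. RNA from 4 samples was measured on 1-colour arrays: 2 samples of haploid and 2 of diploid ESCs, all parthenogenetic and labelled female, with a line 1 and a line 2 in each group. Parthenogenetic cells derive from an egg without a sperm, so both groups carry maternal genomes only. The labels state no treatment, no cell sort and no ploidy measurement, and haploid ESCs are known to turn diploid in culture, so the share of haploid cells in the haploid samples is not known here. The question was whether pro-survival and pro-death members differed between haploid and diploid ESCs.

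Proteins of this family decide at the outer membrane of the mitochondrion whether a cell starts apoptosis. The effectors BAX and BAK form pores through which cytochrome c leaves, and caspases are then activated by the apoptosome. Pro-survival proteins such as BCL2, BCL-XL and MCL1 hold the effectors and their activators in check. BH3-only proteins sense stress and either block the pro-survival proteins or activate the effectors directly. Pluripotent stem cells are known to lie close to the threshold for apoptosis, and MCL1 and BCL-XL are known to support their survival.

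Promoter sequences are shown for the 3 members with the largest differences among those with no overlap between haploid and diploid values, 1 higher and 2 lower in haploid cells. They are the 250 bases before the most upstream annotated start, from RefSeq on GRCm38.p6, 5′ to 3′ on the strand of the gene. Capitals mark the letters GGGCGG, known as a GC box, the letters CCAAT, known as a CCAAT box, or the letters GTAAACA, a FOXO site, searched on both strands, with no overlap between the motifs in these windows.
Bcl2l1, chr2:152831729-152831978, minus strand: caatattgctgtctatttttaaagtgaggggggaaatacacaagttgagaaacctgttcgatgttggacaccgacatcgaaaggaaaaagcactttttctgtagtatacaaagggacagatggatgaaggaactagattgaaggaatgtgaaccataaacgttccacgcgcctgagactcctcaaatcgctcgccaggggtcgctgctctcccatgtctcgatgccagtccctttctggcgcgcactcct
Bcl2l11, chr2:128125788-128126037, plus strand: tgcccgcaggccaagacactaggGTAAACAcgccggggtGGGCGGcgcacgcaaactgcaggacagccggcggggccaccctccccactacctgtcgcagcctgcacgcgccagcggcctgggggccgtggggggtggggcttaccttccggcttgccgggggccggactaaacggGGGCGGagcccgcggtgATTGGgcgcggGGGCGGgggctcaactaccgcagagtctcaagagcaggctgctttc
Bid, chr6:120916825-120917074, minus strand: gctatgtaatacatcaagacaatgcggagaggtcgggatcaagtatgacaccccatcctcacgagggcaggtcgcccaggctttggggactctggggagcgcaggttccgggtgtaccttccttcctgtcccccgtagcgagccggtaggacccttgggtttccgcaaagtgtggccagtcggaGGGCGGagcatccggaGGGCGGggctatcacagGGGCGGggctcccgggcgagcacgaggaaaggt

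The Bcl2l11 window held 3 GC boxes, 1 CCAAT box and 1 FOXO site, and the Bid window held 3 GC boxes. None of these letters stood in the windows of the 3 annotated Bcl2l1 starts. Across the 15 annotated starts of the 9 members with an entry, 10 windows held a GC box, 4 a CCAAT box, 2 a FOXO site (Bcl2l11 and Bbc3) and 2 an E-box (CACGTG; Bax and Bbc3); starts of 1 gene can share sequence. Among 32851 annotated mouse starts, 32.7% held a GC box, 33.8% a CCAAT box, 3.2% a FOXO site and 6.0% an E-box in a window of this length. G and C made up 72.0% of the Bcl2l11 window, 63.6% of that of Bid and 47.6% of that of Bcl2l1. Bik was not matched.

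Values below are log2 of the processed signal minus the array's 75th percentile of it, so a level of 0 is the signal of a spot at that percentile. A level belongs to 1 probe, and levels of different genes are not set against each other. Between 53.6% and 65.0% of probes were well above background on an array. All 13 member probes were well above background on all 4 arrays, so each member passed the filter in both groups. Of 10 ESC markers, all were measured and their median difference was 0.05. They ran from -0.51 (Tdgf1) to 0.35 (Dppa5a), with 6 above 0 and 4 below, and 0 were called. Groups did not overlap for 60% of them, 3 higher and 3 lower in haploid cells, beside 47% of all features. Of 10 markers of feeder fibroblasts 8 were measured, with a mean level of -0.73 and -0.96 on the haploid arrays and -1.04 and -1.46 on the diploid arrays. Their differences were mixed, with a median of 0.60. Above 0 lay 5, all with groups not overlapping: Thy1 (1.11), Fbln5 (1.03), Col1a1 (0.99), Postn (0.61) and Col1a2 (0.58). Below 0 lay Col3a1 (-0.39), Dcn (-0.38, groups not overlapping) and Lum (-0.29). The share without overlap was 75%, beside 47% of all features. Of 8 trophectoderm markers 5 were measured, with means of 0.09 and -0.08 against -0.58 and -0.55. Gata3, Krt8 and Krt18 lay above 0 (1.02 to 1.23), all with groups not overlapping. Eomes (-0.43, groups not overlapping) and Tfap2c (-0.14) lay below. That made 80% of the measured trophectoderm markers without overlap, beside 47% of all features, and 0 were called. Of 6 primitive endoderm markers only Gata4 and Gata6 were measured, with means of -5.47 and -4.46 on the haploid arrays and -4.33 and -3.87 on the diploid arrays. Both were near background, well above it on 2 diploid arrays but only 1 haploid array. They thus passed the filter only through the diploid group, where they were higher, so this gap is not a test of it. Features as dim had a median difference of -0.17. Elf5 of the trophectoderm list, Dab2 of the primitive endoderm list and Pdgfra of the fibroblast and primitive endoderm lists were well above background on no array. The part of such cells in the differences below was not tested. In bulk RNA, fewer cells of a type and less RNA per cell cannot be told apart, and scaling each array to its own signals leaves out any difference in total RNA per cell.

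No member of the family passed the test. The groups were compared by a limma fit over all 17963 features, with Benjamini-Hochberg adjustment over all of them and n = 2 per group. Of the 10 members, 0 were called and 0 had an unadjusted p under 0.05. Over all features 20 were called, or 0.111% (0.0835% higher and 0.0278% lower in haploid cells), and 11.7% had an unadjusted p under 0.05. The members' adjusted p ran from 0.468 (Bcl2l1) to 0.928 (Mcl1). Differences, haploid minus diploid, ran from -0.33 (Bid) to 0.38 (Bcl2l1), with 4 members above 0 and 6 below. Their median was -0.06, beside 0.02 over all features, of which 53.2% lay above 0. Haploid and diploid values did not overlap for 4 members, 1 higher and 3 lower in haploid cells. That share of 40% stood beside 47% of all features, 26% higher and 20.9% lower, and is not a result about the family.

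**Figure D1:**
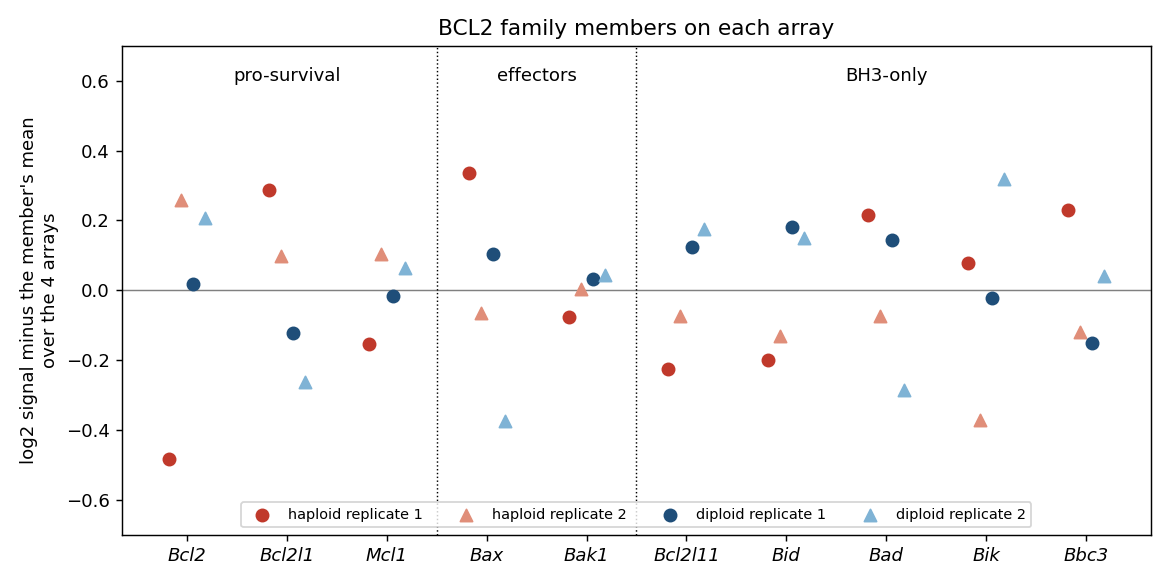
The vertical axis is the log2 signal of each member minus its own mean over the 4 arrays, and each point is 1 array (red, haploid; blue, diploid; circle, replicate 1; triangle, replicate 2). Both haploid points lie above both diploid points for Bcl2l1, and below them for Bak1, Bcl2l11 and Bid, while the groups overlap for the other members.

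Of the pro-survival genes, Bcl2l1 had the largest difference. Bcl2l1 encodes BCL-XL, and a shorter splice form, BCL-XS, promotes death; the array gives no separate value for the forms. Its level was 3.25 and 3.06 on the haploid arrays and 2.84 and 2.70 on the diploid arrays. Both haploid arrays were thus higher than both diploid arrays. The difference was 0.38 ± 0.18 (SE, n = 2 per group), or 1.30-fold, with a 95% interval of -0.05 to 0.81 (limma, unadjusted p = 0.0734, adjusted p = 0.468). Features of similar brightness had a median difference of 0.09. The other Bcl2l1 probe gave -2.89 and -2.79 against -3.32 and -2.73, a difference of 0.19 with overlapping groups.

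Mcl1, whose short-lived protein restrains BAK and BIM, differed by less than its error. The brighter probe gave 4.20 and 4.46 on the haploid arrays and 4.34 and 4.42 on the diploid arrays. The diploid values lay between the haploid ones. The difference was -0.05 ± 0.18, with a 95% interval of -0.49 to 0.39 (limma adjusted p = 0.928). The second Mcl1 probe differed by -0.19, with 3.20 and 2.88 on the haploid and 3.19 and 3.27 on the diploid arrays. Without haploid replicate 1 the brighter probe differed by 0.08, so its direction is not settled.

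Bcl2, the founding pro-survival gene, gave a dim signal, with 24.1 and 42.2 intensity units on the haploid arrays and 39.9 and 66.9 on the diploid arrays. On the log2 scale these were -4.45 and -3.71 against -3.95 and -3.76. Haploid replicate 1 was the low array, and haploid replicate 2 was level with the diploid arrays. The difference was -0.23 ± 0.27 (95% interval -0.88 to 0.43, limma adjusted p = 0.756), and it was 0.14 without haploid replicate 1. Features as dim as Bcl2 had a median difference of -0.17. The haploid arrays differed from each other by 0.74, the widest gap within a group of any member. The accession of this probe, NM_177410, is that of 1 of the Bcl2 transcript variants.

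The effectors BAX and BAK, either of which can open the mitochondrial outer membrane, had small differences for their error. Bax stood at 5.33 and 4.93 on the haploid arrays and at 5.10 and 4.62 on the diploid arrays. In each group replicate 1 was higher, by 0.40 and 0.48 log2 units, and the groups overlapped. Bax differed by 0.26 ± 0.24 (95% interval -0.32 to 0.85, limma adjusted p = 0.676), and features as bright as Bax had a median difference of 0.22. Without diploid replicate 2 the Bax difference was 0.02.

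Bak1 was the steadiest member, at 3.08 and 3.16 on the haploid arrays and 3.19 and 3.20 on the diploid arrays. Its groups did not overlap, yet all 4 values lay close together. The difference was -0.08 ± 0.17, with a 95% interval of -0.48 to 0.32 (limma adjusted p = 0.859).

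Among BH3-only genes, Bid and Bcl2l11 were lower on both haploid arrays than on both diploid arrays, though neither passed the test. Bid links death receptors to mitochondria: caspase-8 cuts the protein, and the fragment activates BAX and BAK. It stood at 0.98 and 1.05 on the haploid arrays and 1.36 and 1.33 on the diploid arrays. The replicates of a group differed by at most 0.07, so the groups stood apart by more than the gaps within them. The difference was -0.33 ± 0.16, or 1.26-fold lower (95% interval -0.73 to 0.07, limma unadjusted p = 0.0886, adjusted p = 0.492), and it ran from -0.37 to -0.30 with 1 array left out.

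Bcl2l11 encodes BIM, a strong activator that binds all pro-survival proteins and is a known FOXO target. Its level was -1.47 and -1.32 on the haploid arrays and -1.12 and -1.07 on the diploid arrays. Both haploid values were lower. The difference was -0.30 ± 0.17, or 1.24-fold lower (95% interval -0.72 to 0.11, limma adjusted p = 0.521), and it ran from -0.38 to -0.23 with 1 array left out. The FOXO gene Foxo1, from a list of genes that control members, stood at -0.11 and -0.27 against 0.03 and 0.40, a difference of -0.41 ± 0.20 (limma adjusted p = 0.485), with its other probe at -0.43. Foxo3, on the same list, did not pass the filter on dim probes. Bbc3, the other member with a FOXO site, differed by 0.11. A link between Foxo1 and these members was not tested.

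Bik, a BH3-only protein of the endoplasmic reticulum, had the same size of difference with more spread. It stood at -2.81 and -3.26 on the haploid arrays and -2.91 and -2.57 on the diploid arrays. Haploid replicate 1 lay between the diploid arrays, so the groups overlapped. The difference was -0.30 ± 0.23 (95% interval -0.85 to 0.26, limma adjusted p = 0.622). Without haploid replicate 2 it was -0.07.

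Bad and Bbc3 lay slightly above 0. BAD is held inactive by phosphorylation and 14-3-3 binding when growth factors signal. Its brighter probe gave 2.85 and 2.56 on the haploid arrays and 2.78 and 2.35 on the diploid arrays, a difference of 0.14 ± 0.22 (limma adjusted p = 0.810). Replicate 1 was the higher array in both groups, and the values overlapped. The other Bad probe gave -1.26 and -1.31 against -1.07 and -1.27, a difference of -0.11, so the probes disagreed in sign.

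Bbc3 encodes PUMA, a main p53 target that drives death after DNA damage. It stood at 2.31 and 1.96 on the haploid arrays and 1.93 and 2.12 on the diploid arrays, with haploid replicate 1 the high array. The difference was 0.11 ± 0.20 (95% interval -0.37 to 0.59, limma adjusted p = 0.843), and it was -0.07 without haploid replicate 1. Trp53 itself differed by -0.06 ± 0.17 (limma adjusted p = 0.906).

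**Figure D2:**
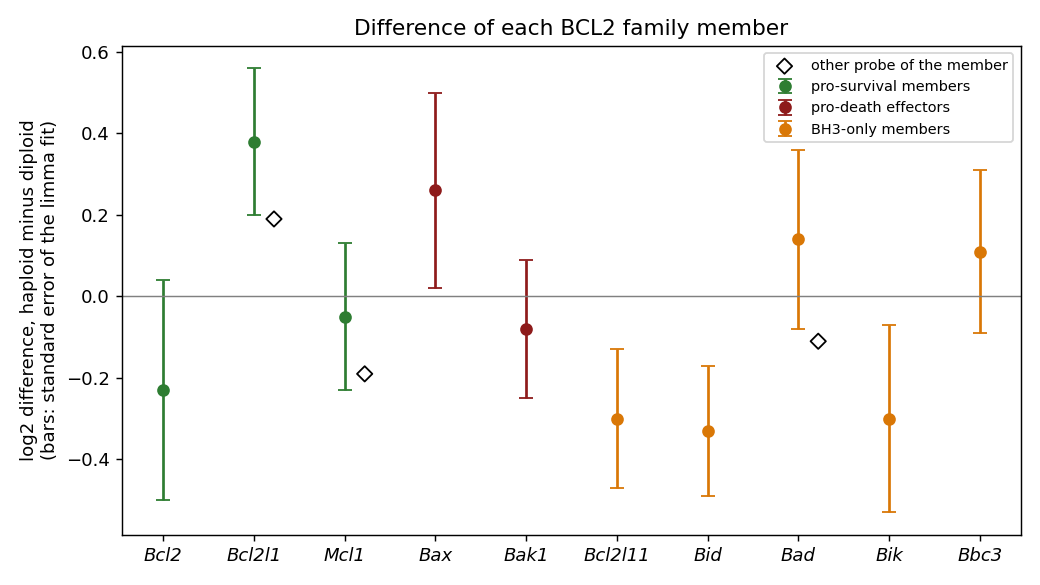
The vertical axis is the log2 difference, haploid minus diploid, of each member, with bars for the standard error of the limma fit (n = 2 per group) and open diamonds for the second probe of Bcl2l1, Mcl1 and Bad. Bcl2l1 is highest at 0.38 and Bid lowest at -0.33, and for Bad the second probe lies on the other side of 0.

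Set against each other, the pro-survival and pro-death groups did not separate haploid from diploid cells. The 3 pro-survival members had a median difference of -0.05, with 1 above 0, and the 7 pro-death members had one of -0.08, with 3 above 0. The BH3-only members had a median of -0.30 with 2 of 5 above 0, and the effectors 1 of 2 above 0. With each member centred on its own mean over the arrays, the pro-survival mean minus the pro-death mean was -0.17 and 0.27 on the haploid arrays and -0.10 and -0.01 on the diploid arrays. The haploid arrays thus held both the lowest and the highest value. The mean difference between the classes was 0.11, smaller than the within-group SD of 0.22, and it was 0.33 without haploid replicate 1 and -0.11 without haploid replicate 2.

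**Figure D3:**
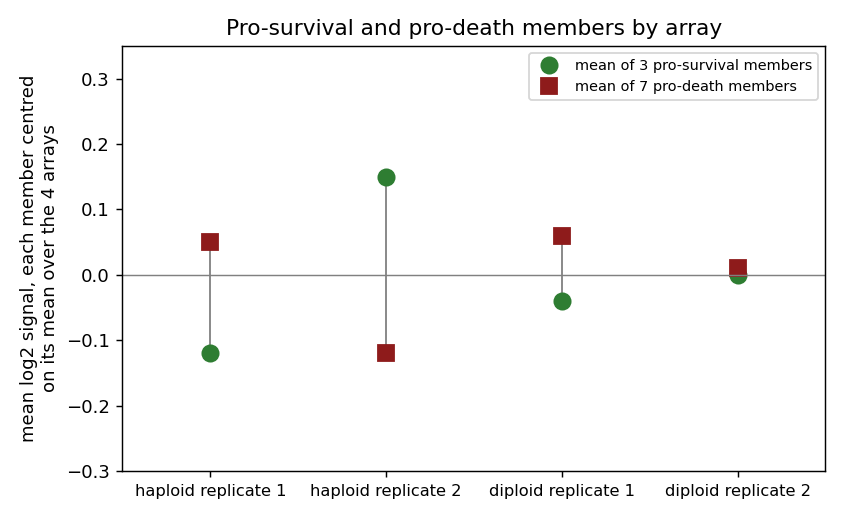
For each array, the circle is the mean of the 3 pro-survival members and the square that of the 7 pro-death members, in log2 units after each member was centred on its mean over the 4 arrays. The pro-survival mean lies below the pro-death mean on haploid replicate 1 (-0.12 and 0.05) and above it on haploid replicate 2 (0.15 and -0.12).

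Of 15 other BCL2 family genes, 13 were measured, and 0 passed in either direction (limma, adjusted over all features; 1 at an unadjusted p under 0.05). Their median was -0.14, with 4 above 0 and 9 below. Bcl2l15, a little-studied member of the family, had the largest difference of the genes named here, at -0.92 and 0.49 on the haploid arrays and -2.36 and -2.91 on the diploid arrays. Both haploid arrays were higher, and they differed from each other by 1.41. The difference was 2.42 ± 0.46, or 5.36-fold (95% interval 1.31 to 3.53, limma unadjusted p = 0.00162, adjusted p = 0.146), and this rested on 1 of 3 probes, the other 2 not passing the filter on dim probes. It lay above 0 in all 17 other settings and was called in 3 of them. One was without background correction (1.79, limma adjusted p = 0.00676). The other two left 1 haploid array, so that the spread came from the diploid pair and limma's prior over all features, and the gap between the haploid arrays dropped out: 3.12 without haploid replicate 1 (limma adjusted p = 0.0311) and 1.72 without haploid replicate 2 (limma adjusted p = 0.0412). In the other 14 settings it was not called, among them 1.08 with normexp on all spots (limma adjusted p = 0.77), 2.70 without diploid replicate 1 (0.461) and 2.14 without diploid replicate 2 (0.582).

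Bnip3, a mitophagy receptor that hypoxia is known to induce, was set apart by 1 array. It stood at 1.70 and 3.85 on the haploid arrays and 3.67 and 3.62 on the diploid arrays. Only haploid replicate 1 was low, and the other haploid array was the highest of the 4. The difference was -0.87 ± 0.63 (limma adjusted p = 0.605), it was -0.84 and -1.03 by the other probes, 0.20 without haploid replicate 1 and -1.94 without haploid replicate 2. That last fit compared 1 haploid array with the diploid pair, which with the prior supplied the spread, and called Bnip3 at limma adjusted p = 0.00917. The pro-survival gene Bcl2l2 (BCL-W) differed by -0.39 ± 0.20 and Bcl2l10 by -0.31 ± 0.20, with limma adjusted p of 0.498 and 0.571, and with the haploid values below the diploid ones for both. Features as dim as Bcl2l10 had a median difference of -0.17.

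Downstream of the mitochondrion, 10 of 10 apoptosome and caspase genes were measured and 0 passed (limma; 0 at an unadjusted p under 0.05), with 4 above 0 and a median of -0.04. Differences ran only from -0.29 to 0.22. Apaf1, the scaffold of the apoptosome, differed by -0.29 ± 0.25 and the caspase gene Casp2 by -0.25 ± 0.18. Cytochrome c (Cycs) differed by 0.22 ± 0.19, with its other probe that passed the filter at 0.07. The DNase inhibitor gene Dffa differed by 0.17 ± 0.17, with other probes at 0.02 and -0.18. For these genes limma adjusted p ran from 0.604 to 0.717. The median difference of features as bright as Cycs was 0.22.

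Of 8 inhibitors of caspases and their antagonists, 6 were measured, 0 passed (limma; 1 at an unadjusted p under 0.05) and the median was 0.06. Htra2, a mitochondrial protease that relieves caspase inhibition, stood at 3.31 and 3.37 on the haploid arrays and 2.95 and 2.66 on the diploid arrays. Both haploid arrays were higher, and the difference was 0.53 ± 0.18, with its other probe at 0.27 (limma unadjusted p = 0.0265, adjusted p = 0.349). Birc2 (cIAP1) differed by -0.35 ± 0.18 with non-overlapping groups, and Birc6 by -0.14 ± 0.21. Birc5 (survivin, also a mitotic protein) differed by 0.28 ± 0.22, with other probes at -0.04 and 0.08. The median difference of features as bright as Birc5 was 0.22.

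All 7 death receptor genes were measured, and 6 lay above 0, where 53.2% of all features did. Their median was 0.10, and 0 passed (limma, with 2 at an unadjusted p under 0.05). Fas, a death receptor that fibroblasts also carry, stood at -3.82 and -4.05 on the haploid arrays and -4.78 and -4.75 on the diploid arrays, near background, and was well above it on only 1 diploid array. The haploid arrays were higher, by 0.83 ± 0.18 (limma unadjusted p = 0.00287, adjusted p = 0.174). Of the fibroblast markers, 5 of 8 lay above 0 and 3 below, with a median of 0.60. Fas thus passed the filter only through the haploid group, where it was higher, and dropped out where all 4 arrays had to be well above background. It lay above 0 in 15 of the 16 other settings that kept it, a count that does not test its direction. With normexp background correction Fas differed by -0.71 on all spots and by 0.43 once spots of high local background were dropped. The adaptor gene Tradd stood at 1.05 and 1.23 against 0.69 and 0.67, a difference of 0.46 ± 0.17 (limma unadjusted p = 0.0341, adjusted p = 0.383). Ripk1 differed by -0.31 ± 0.25 and Cflar, which encodes the caspase-8 inhibitor FLIP, by 0.10 ± 0.19.

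All 7 genes for partners at the outer membrane were measured, and 6 lay above 0, beside 53.2% of all features. Vdac1, Vdac2, Vdac3 and Mtch2 were among the brightest features, whose median difference was 0.22. Features as bright as the rest of the list had a median of 0.04, so all features are not a like baseline here. Of the 7, 0 passed (limma, with 0 at an unadjusted p under 0.05), and the median was 0.10. The channel genes Vdac1, Vdac2 and Vdac3 differed by 0.34 ± 0.19, 0.19 ± 0.18 and 0.23 ± 0.20, beside a median of 0.22 for features of similar brightness, and with cyclic loess normalization, which evens out differences along brightness, by 0.12, 0.00 and 0.07. The fission factor gene Mff differed by 0.10 ± 0.17. Of 15 genes that control members, 13 were measured, 7 of them above 0, with a median of 0.00 and none called (limma; 0 at an unadjusted p under 0.05). In that list the stress factor gene Ddit3 (CHOP) stood at -0.38 and 0.45 on the haploid arrays and -0.38 and -0.52 on the diploid arrays, so its difference of 0.49 ± 0.29 came from haploid replicate 2 and was 0.07 without it. Fbxw7 and Huwe1, ubiquitin ligase genes whose products turn over MCL1, differed by -0.34 ± 0.21 and 0.30 ± 0.21. With 1 array left out, Fbxw7 ran from -0.56 to -0.13 and Huwe1 from 0.07 to 0.52, both ends of each range coming from leaving out a haploid array.

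**Figure D4:**
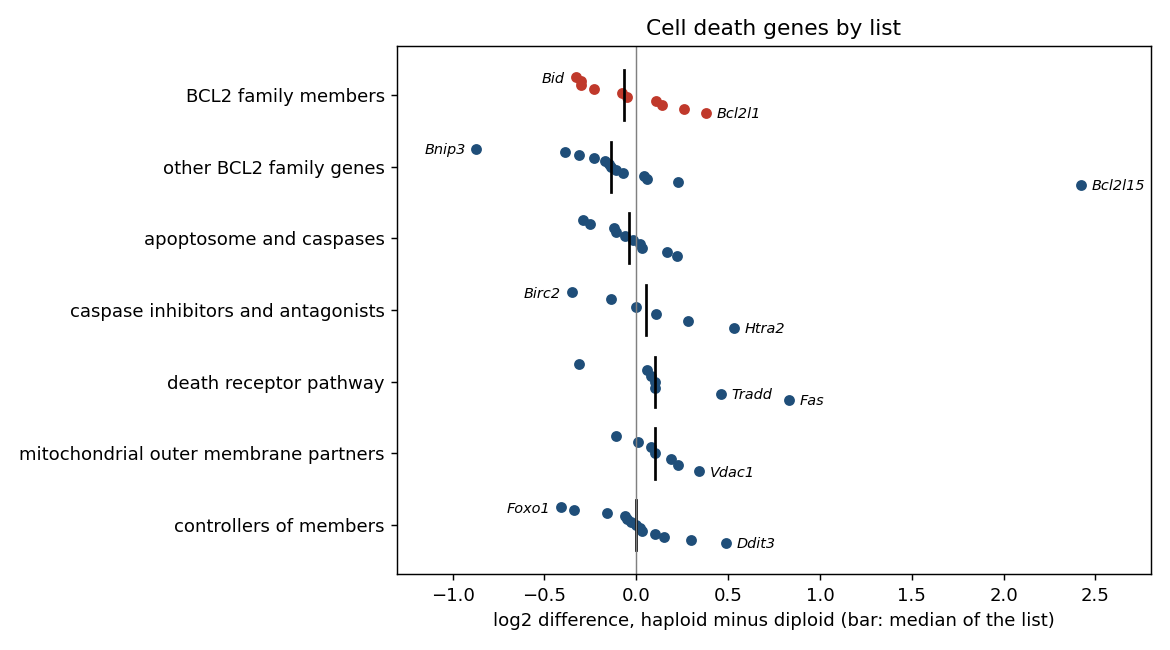
Each point is 1 gene's log2 difference, haploid minus diploid, in 1 list, and the black bar is the list's median. The medians of the 7 lists lie between -0.14 and 0.10, and Bcl2l15 at 2.42 and Bnip3 at -0.87 stand farthest out.

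Under the alternative processing the members stayed uncalled. In 17 other settings, from other background corrections and scalings to each array left out, 0 of 10 members were called, with the smallest adjusted p at 0.279 (Bcl2l1, limma with a trended and robust prior). Bcl2l1 and Bax lay above 0 and Bcl2l11, Bid and Bik below 0 in all 17, while Bcl2, Mcl1, Bak1, Bad and Bbc3 each changed sign in at least 1 setting or with another probe. Bcl2l1 ran from 0.19 with its other probe to 0.75, Bid from -0.37 to -0.13 and Bcl2l11 from -0.42 to -0.20.

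**Figure D5:**
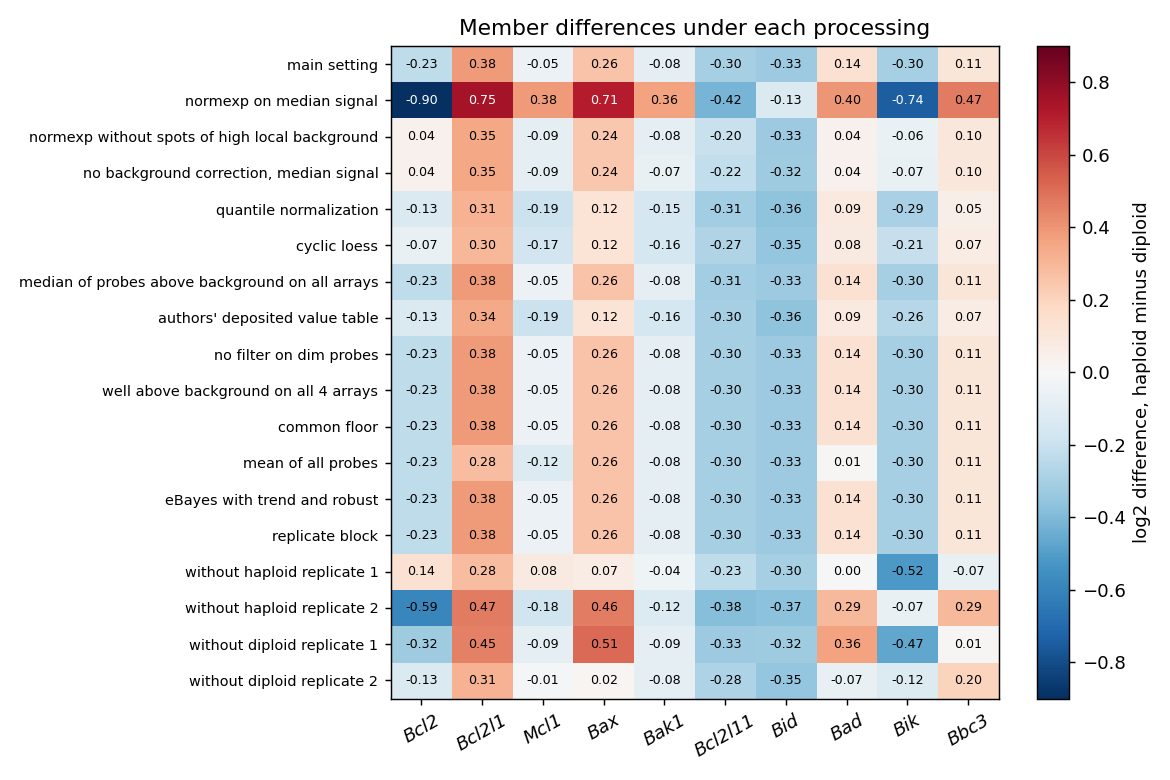
Each cell gives the log2 difference, haploid minus diploid, of 1 member (column) under 1 processing (row), with red above 0 and blue below. The columns of Bcl2l1 and Bax are red throughout, those of Bcl2l11, Bid and Bik are blue throughout, and normexp on the median signal of all spots gives the widest values (Bcl2 at -0.90, Bcl2l1 at 0.75).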

How the data were processed

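Per the labels' protocols, 0.2 ug of total RNA per sample was amplified, labelled with Cy3 and hybridised to 1 Agilent array. Feature Extraction 11.0.1.1 made the deposited scanner files, per the file headers, and their processed signal is a linear, background-subtracted intensity; marks such as well above background are other columns of 0 or 1 made by the same program. The authors' deposited value table, also of intensity, was an alternative; its normalization is not given in the sources used. All arrays were on 1 slide.

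Control spots and outlier spots (121 to 168 of 43020) were left out, no spot was saturated, repeated spots were averaged, and log2 values were reduced by the array's 75th percentile (526.4 to 907.1 intensity units). Accessions were matched to RefSeq genes (GRCm38.p6), naming 66.1% of 39409 probes. The filter kept features that both arrays of at least 1 group showed well above background, and the brightest probe stood for a gene. limma 3.58.1 (R 4.3.3; lmFit, eBayes, two-sided, threshold 0.05) was fitted to 17963 features and tested on simulated data. No source says that samples came from separate cultures beyond the series' statement of independent experiments, so p-values reflect only how far these samples spread, which may be technical; the number of arrays limits the precision. Line numbers were not treated as pairs, since deviations of same-numbered arrays correlated at 0.05. That value cannot show whether same-numbered lines are related, so a replicate block was among the alternatives. The members and lists were chosen with earlier results of these data known. All members were named, and up to 4 genes of each other cell death list with the smallest p. Trp53, Foxo3 and the cell type markers are named outside this rule. Alternatives covered background correction, scaling, filter, floor, probe choice, prior, replicate block and each array left out.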

Additional observations from a re-analysis of the deposited data

How the results depend on the processing

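With 2 arrays per group, a fit of this size leaves wide intervals, and no setting called a member. Of all features, 20 were called in the main setting (15 higher, 5 lower) and, by limma, 0 with normexp on the median signal of all spots, with cyclic loess, without a filter and with a common floor (121, 2286, 1660 and 2068 at an unadjusted p under 0.05), 5 with quantile normalization (4 higher, 1 lower), 4 with the deposited value table (3 higher, 1 lower), 110 with normexp once spots of high local background were dropped (106 higher), 82 with all 4 arrays above background (78 higher), 233 without background correction (216 higher), 425 with a trended and robust prior, and 2 with the replicate block (0 higher, 2 lower), which changed no member's call. Leaving out 1 array gave 0 to 439 calls: 242 without haploid replicate 1, 439 without haploid replicate 2, 0 without diploid replicate 1 and 60 without diploid replicate 2, of which 58 were lower. These counts are not over the same features, since the filter was redone. With 1 array left out, 18254 to 21126 features were tested, beside 17963 in the main setting. Without a filter 32485 were tested, and 16739 with all 4 arrays well above background. A fit that left 1 array in a group took its spread from the other pair and the prior, with the lone array assumed to vary alike. The cause was not tested. The files hold no mean signal, so the planned corrections on it were not run, and the median signal was used instead; these settings and the other probe were chosen after seeing the data.

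The pro-survival median (-0.05) was 0.38 with normexp on all spots, where the median of all features was -0.10, -0.19 with the other probes, and -0.18 to 0.14 with 1 array left out. The pro-death median (-0.08) was 0.36 with normexp on all spots. With the same correction after spots of high local background were dropped (3 non-control spots, all on diploid replicate 2), the medians were 0.04 and -0.06. Signs turned with normexp on all spots for Mcl1 (0.38), Bak1 (0.36), Casp2 (0.08), Dffa (-0.59), Fas (-0.71) and Cflar (-0.80). They turned with normexp, spots of high local background dropped, for Bcl2 (0.04), Bcl2l10 (0.05) and Dffa (-0.04), and without background correction for Bcl2 (0.04), Bcl2l10 (0.02) and Dffa (-0.03). Vdac2 was at 0.00 with cyclic loess, and Bad at -0.11 by its other probe. With 1 array left out, Bcl2 ran from -0.59 to 0.14, Mcl1 from -0.18 to 0.08, Bbc3 from -0.07 to 0.29, Bad from -0.07 to 0.36, Bnip3 from -1.94 to 0.20, Birc6 from -0.34 to 0.07, Ripk1 from -0.64 to 0.02 and Cflar from -0.05 to 0.25, so these 8 genes changed sign.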
